A study of Mus musculus with 3 samples.

Results

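The genes described are those of the 4 AMPA receptor subunits, Gria1, Gria2, Gria3 and Gria4, and of 1 delta receptor subunit, Grid1, in a map of 5-hydroxymethylcytosine (5hmC) of mouse cerebellum. Members were chosen by name, with earlier results of these data known, and located by their RefSeq gene bodies on GRCm38. Every 10 kb bin of the deposited table that overlaps a body was taken. All 5 genes were measured, of 21672 protein-coding genes with at least 1 bin, and they covered 190 of 264399 bins. The series holds 3 libraries, 1 for each group. DDD-seq, in which glycosylated 5hmC resists a double-stranded DNA deaminase called SsdAcat, was applied to cerebellum labelled normal/control and to cerebellum labelled chronic sleep deprivation. ACE-seq, an APOBEC-coupled method that also reads protected 5hmC, was applied to cerebellum that the treatment label again gives as normal/control. The labels repeat the SsdAcat protocol for the ACE-seq library, so how its own DNA was deaminated is stated in none of the sources used here. The same holds for strain, sex, age, number of animals and the length of the sleep deprivation.

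5hmC is formed when TET enzymes oxidise 5-methylcytosine. It is abundant in neurons, where it is known to lie in the bodies of transcribed genes. AMPA receptors are tetramers of the subunits GluA1 to GluA4, encoded by Gria1 to Gria4, and carry most fast excitatory transmission in the brain. GluA2 makes the channel poorly permeable to calcium after its transcript is edited by the enzyme ADAR2. GluD1, encoded by Grid1, belongs to the delta family, which binds cerebellins and through them presynaptic neurexins. Granule cells, the most numerous cerebellar neurons, are known to express Gria2 and Gria4, and Bergmann glia express Gria1 and Gria4.

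The level of a gene is the mean percentage over its bins, with a standard error (SE) from the same bins. Such an SE measures scatter along the gene and says nothing of the spread between animals. Each group has a single library, so no test between libraries was possible, no p-value is given and size rules stand in for calls. Where 3 values follow each other without names, they are in the order DDD-seq control, sleep-deprived DDD-seq, ACE-seq control. Genes were compared with the 2921 protein-coding genes of at least 10 bins, whose median level was 1.66%, 1.66% and 1.62%. The table lists neither reads nor coverage, and the depth of a value is therefore unknown. The mean over all bins was 1.54%, 1.54% and 1.50%. In this bulk tissue, a change in the share of a cell type and a change of the level within its cells cannot be told apart.

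Gria2 and Gria4 are the members on which the results turn, and both have a start site in the RefSeq promoter table (GRCm38.p6). The 250 bases before that start are shown because the bin that holds them was lower in each library than the bin beside it, which was among the highest of the gene. Both sequences are on the minus strand, at chr3:80802836-80803085 for Gria2 and chr9:4796235-4796484 for Gria4. They are written 5′ to 3′ with each CG dinucleotide, the main site of cytosine methylation, in capitals.
Gria2: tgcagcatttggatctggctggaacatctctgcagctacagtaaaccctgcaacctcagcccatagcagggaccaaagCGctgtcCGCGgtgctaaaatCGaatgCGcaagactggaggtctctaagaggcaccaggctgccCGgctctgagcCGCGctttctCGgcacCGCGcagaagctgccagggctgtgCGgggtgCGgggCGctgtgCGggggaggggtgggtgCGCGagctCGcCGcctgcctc
Gria4: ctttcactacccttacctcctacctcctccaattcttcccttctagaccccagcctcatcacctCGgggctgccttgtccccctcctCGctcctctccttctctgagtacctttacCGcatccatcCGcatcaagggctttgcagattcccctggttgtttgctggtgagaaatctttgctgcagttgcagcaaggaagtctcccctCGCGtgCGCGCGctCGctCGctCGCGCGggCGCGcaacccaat
The Gria2 stretch holds 19 CG and has a GC content of 64.8%, and the Gria4 stretch holds 16 CG with 58.8%. Of 32851 such windows in the promoter table, the median held 6 CG, 19.7% held at least as many as Gria2 and 25.4% at least as many as Gria4. The RefSeq record of Gria2 reaches 1392 bases further upstream than this start, within the same bin, and that of Gria4 ends at it. The Gria4 stretch also overlaps the edge of the long noncoding RNA gene Gm46100.

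The subunit genes fell into a high pair, Gria4 and Gria2, and a low pair, Grid1 and Gria1, with Gria3 between them. Gria4 (chr9:4417893-4796234, 39 bins) had 4.38% ± 0.30 (SE), 4.49% ± 0.33 and 4.42% ± 0.30. Gria2 (chr3:80681450-80804227, 13 bins) had 4.07% ± 0.66, 5.08% ± 0.81 and 4.62% ± 0.69. Both lay far above the median gene in each library. Gria3 (chrX:41400819-41678601, 28 bins) had 1.86% ± 0.15, 1.92% ± 0.15 and 1.88% ± 0.18. Grid1 (chr14:34820003-35583387, 77 bins) had 1.42% ± 0.05, 1.48% ± 0.04 and 1.40% ± 0.05, and Gria1 (chr11:57011571-57330244, 33 bins) had 1.32% ± 0.07, 1.36% ± 0.06 and 1.39% ± 0.08. These last genes lay below the median gene in all 3 libraries. No bin of any member overlapped another protein-coding gene. The gene table used here gives bodies without exons and introns, so levels were not divided between them.

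**Figure D1:**
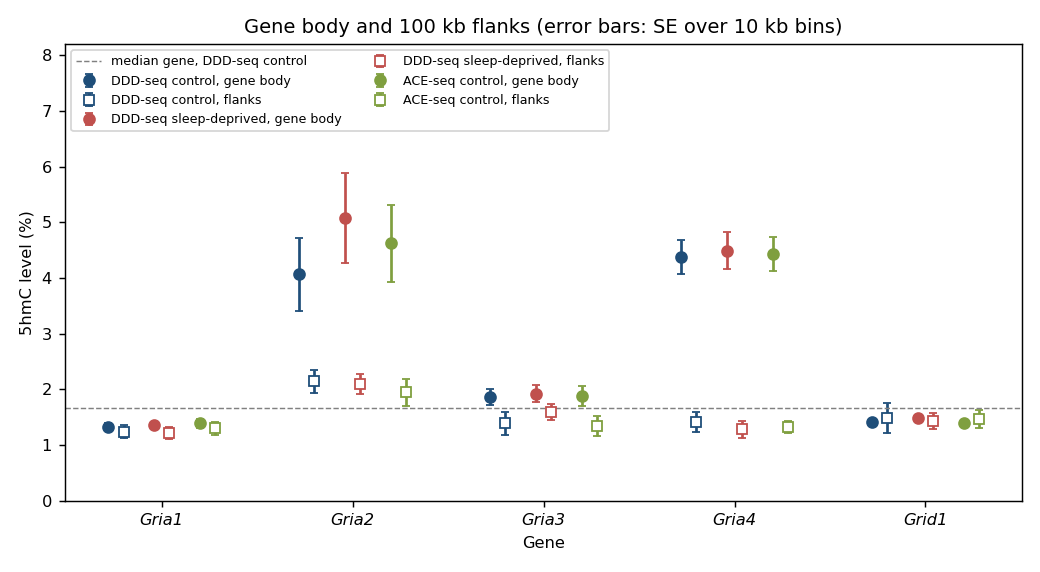
5hmC level in percent (y axis) of each gene body (filled circles) and of its 100 kb flanks (open squares) for the 5 genes (x axis) in the 3 libraries, with SE over bins and the median gene of the DDD-seq control as a dashed line. The bodies of Gria2 and Gria4 lie between 4.07% and 5.08%, above their flanks, whereas those of Gria1 and Grid1 lie between 1.32% and 1.48%, close to theirs.

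The order of the members was Gria4, Gria2, Gria3, Grid1 and Gria1 in the DDD-seq control. It held in the other libraries except that Gria2 stood above Gria4 in both, and the ranges of these genes over the libraries, 4.38% to 4.49% and 4.07% to 5.08%, overlapped. Grid1 and Gria1 were next to each other, with ranges of 1.40% to 1.48% and 1.32% to 1.39%, and in the ACE-seq control they differed by less than 1 SE of either. Gria3 lay between the high pair and the low pair, and its range of 1.86% to 1.92% met neither. Among the 2921 genes, Gria4 ranked 35th, 36th and 38th from the highest and Gria2 ranked 58th, 14th and 24th. Gria3, with 62.2%, 66.2% and 66.6% of genes below it, was near the middle. For this X-linked gene the median of the 129 genes of chromosome X, 1.74%, 1.68% and 1.71%, is the nearer comparison. Grid1 stood above 26.6%, 33.2% and 30.1% of genes and Gria1 above 16.4%, 20.2% and 29.0%.

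Gria2 and Gria4 were higher than their flanks. The flanks of Gria4, 100 kb on either side, had 1.42% ± 0.18, 1.28% ± 0.15 and 1.32% ± 0.11. The ratio of body to flank was 3.10, 3.50 and 3.34, higher than in 99.4%, 99.6% and 99.5% of genes. Gria2 had flanks of 2.14% ± 0.21, 2.10% ± 0.17 and 1.94% ± 0.24 and ratios of 1.90, 2.42 and 2.38. No flank bin of Gria4 exceeded 2.99% in any library, whereas its highest body bins reached 9.42%, 9.24% and 9.19%. At Gria2 single flank bins were higher, up to 4.16%, 3.55% and 4.72%, which in both control libraries exceeded the mean of the body. Gria3 had flanks of 1.39% ± 0.20, 1.59% ± 0.14 and 1.34% ± 0.18 and ratios of 1.34, 1.21 and 1.40. The ratio was 1.07, 1.12 and 1.07 at Gria1 and 0.95, 1.03 and 0.95 at Grid1, so that body and flank of these genes were within 1 SE of the flank except at Gria1 in the sleep-deprived library. A ratio of at least 1.5 was reached by 2 of the 5 members, Gria2 and Gria4, in each library, against 22.8%, 21.7% and 23.2% of all genes.

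High bins were frequent in Gria2 and Gria4 and absent from Gria1 and Grid1. A bin was counted as high when it was at or above the 95th percentile of all bins of its library, which by definition holds for 5% of bins. In Gria4 this held for 31, 27 and 30 of 39 bins. Gria2 had 8, 10 and 8 such bins of 13. Gria3 had 2, 2 and 3 of 28, or 7.14%, 7.14% and 10.7%, slightly above that share, and Gria1 and Grid1 had 0 in every library. High in all 3 libraries were 24 bins of Gria4 and 6 of Gria2, 30 of the 190 member bins together, against 2.45% of all bins. Bins of 1 gene neighbour each other and are not independent.

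**Figure D2:**
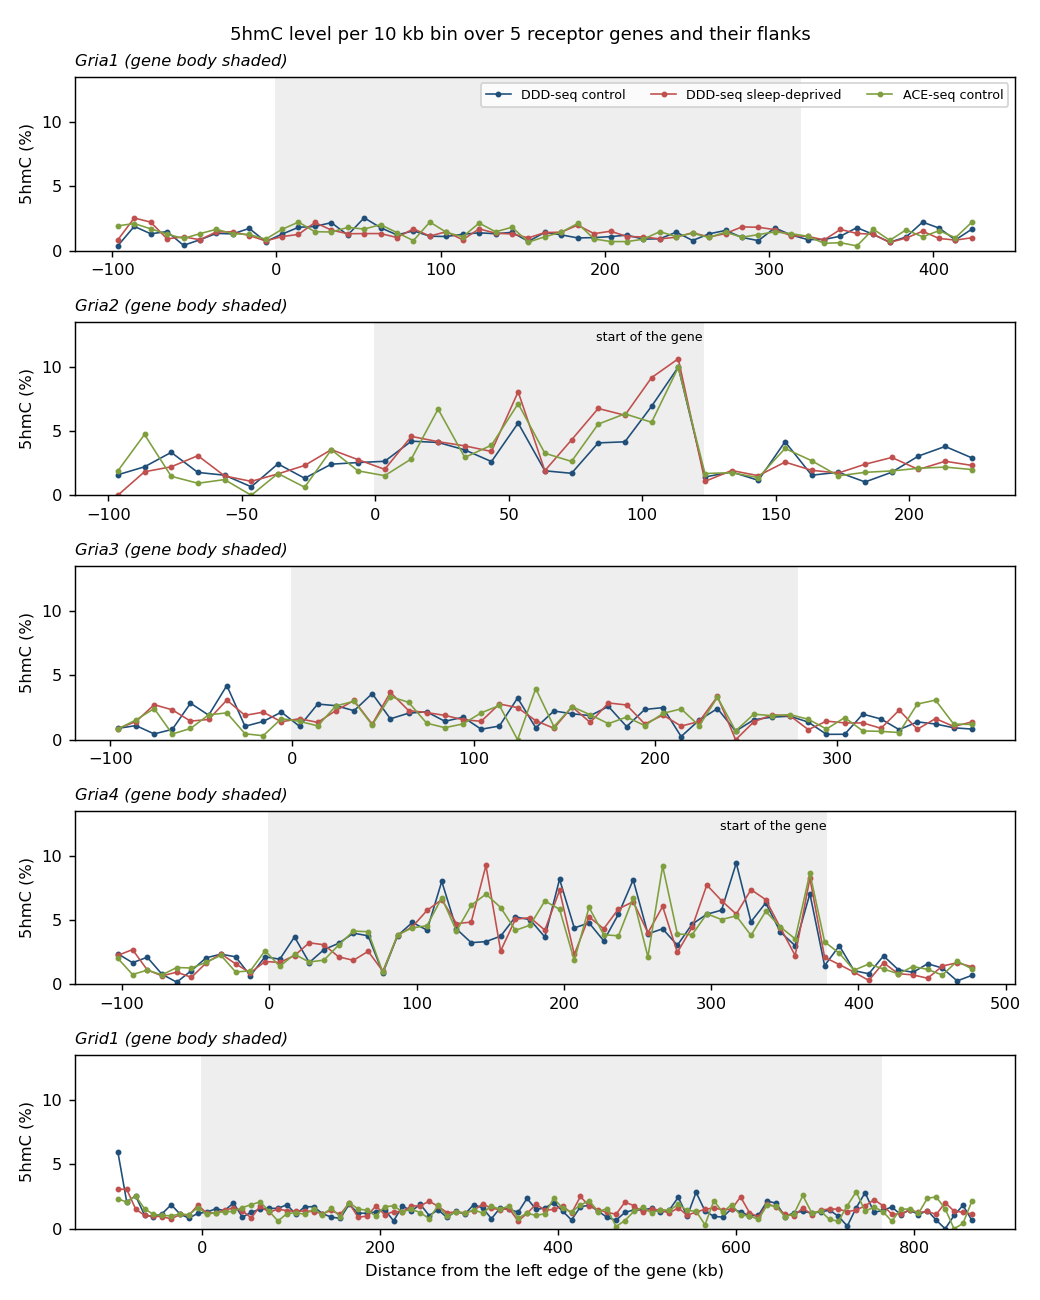
5hmC level in percent of each 10 kb bin (y axis) against the distance in kb from the left edge of the gene (x axis), with the gene body shaded and 1 line for each library. The level steps up inside Gria2 and Gria4 and stays near that of the flanks across Gria1 and Grid1.

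Along Gria2 the profile was steep at the start of the gene. The start bin, chr3:80800001-80810000, had 1.42%, 1.08% and 1.69%. The next bin into the gene, chr3:80790001-80800000, had 9.97%, 10.6% and 9.94% and was the highest of the 13 bins in each library. The step from the first to the second bin was thus 7.01-fold, 9.85-fold and 5.88-fold. The gene record ends at chr3:80804227, so the larger part of the start bin lies outside it. The step therefore also crosses the edge of the gene. The start bin was the lowest of the gene in both DDD-seq libraries and the next to lowest in the ACE-seq control. Beyond the second bin the levels were lower and uneven, with a further high bin at chr3:80730001-80740000 (5.61%, 8.05% and 7.12%), and the bin farthest from the start had 2.64%, 2.01% and 1.52%.

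Gria4 showed the same order of the first bins. Its start bin, chr9:4790001-4800000, had 1.45%, 2.10% and 3.30%, and the next bin, chr9:4780001-4790000, had 7.05%, 8.24% and 8.65%. The start bin was the 2nd, 5th and 10th lowest of 39 and the next bin the 5th, 2nd and 2nd highest. Part of this start bin, too, lies outside the gene, whose record ends at chr9:4796234. The 19 bins on the start side of Gria4 averaged 5.14% ± 0.46, 5.21% ± 0.45 and 4.86% ± 0.44, and the 19 bins on the far side 3.66% ± 0.36, 3.78% ± 0.47 and 3.88% ± 0.41. Among the 2259 genes of at least 10 bins whose strand the promoter table gives, the start bin was lower than the mean of the rest in 73.7%, 75.3% and 71.4%, so a low start bin was common. It was the lowest bin of the gene in 11.0%, 11.3% and 9.52%, and the second bin was the highest in 11.8% to 12.2%. A higher mean on the start side was found in 65.6%, 67.5% and 65.7% of these genes.

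Grid1 was flat in each library. This gene, the longest of the members, was divided into 10 stretches in genome order, whose means lay between 1.17% and 1.69% by DDD-seq in control tissue, between 1.34% and 1.67% after sleep deprivation and between 1.17% and 1.55% by ACE-seq. Over single bins the coefficient of variation in Grid1 was 0.329, 0.238 and 0.340, against 0.581, 0.572 and 0.538 in Gria2 and 0.433, 0.463 and 0.429 in Gria4. Gria3, though lower than Gria4, varied about as much, with 0.424, 0.426 and 0.493, and Gria1 had 0.310, 0.233 and 0.320. In Gria1 the 16 left bins averaged 1.49% ± 0.11 and the 16 right bins 1.14% ± 0.07 in the DDD-seq control, and 1.59% ± 0.12 and 1.21% ± 0.09 in the ACE-seq control. The sleep-deprived library had 1.36% ± 0.08 on both sides, so this slope was seen in the control libraries and not in the third. Gria3 had 1 bin listed at 0 after sleep deprivation and 1 by ACE-seq, and its bins ranged up to 3.59%, 3.69% and 3.99%.

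The bins of Gria2 and Gria4 were ordered more alike in the libraries than those of Gria1 and Grid1. Pearson's r over the 13 bins of Gria2 was 0.916 between the DDD-seq libraries and 0.850 between the DDD-seq and ACE-seq controls, and over the 39 bins of Gria4 it was 0.677 and 0.586. It was 0.264 and 0.213 over the 77 bins of Grid1 and 0.210 and 0.337 over the 33 bins of Gria1. Gria3 had 0.242 and, between the controls, -0.257. Between the sleep-deprived and ACE-seq libraries r was 0.852 for Gria2, 0.717 for Gria4, 0.472 for Gria3, 0.187 for Gria1 and 0.173 for Grid1. These values describe neighbouring bins of single genes, whose range of levels and unknown depth differ between genes.

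The comparison of the sleep-deprived with the control DDD-seq library addressed whether 5hmC at these genes differed after chronic sleep deprivation. Gria2 was 1.02 ± 0.33 points higher in the sleep-deprived library (5.08% against 4.07%, a ratio of 1.25, SE over 13 bins). Only Usp9x, an X-linked ubiquitin protease gene, had a larger difference among the 2921 genes (1.39 ± 1.19 points), and on the autosomes Gria2 had the largest of 2790 genes. The central 95% of all genes lay between -0.312 and 0.309 points. By ratio, Gria2 ranked 33rd. Among the 132 genes of 10 to 20 bins with a mean of at least 3%, a set drawn up after values were seen, the central 95% reached from -0.593 to 0.736 points.

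The other members differed little between these libraries. Gria4 was higher by 0.11 ± 0.26 points, Grid1 by 0.06 ± 0.06, Gria3 by 0.06 ± 0.19 and Gria1 by 0.04 ± 0.08, each at most 1.1 times its SE. The 95% interval of the mean difference, taken from its SE, was -0.399 to 0.610 points at Gria4 and -0.049 to 0.176 at Grid1. This interval treats neighbouring bins as independent and does not give the range of the single bins, which was wider. A ratio of at least 1.1 was reached by 1 of 5 members, Gria2, against 10.1% of all genes, and none had a ratio at or below the inverse, against 10.7%. All 5 members were nominally higher, compared with 1439 of 2921 genes, but 4 of these differences were about the size of their SE or smaller.

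The Gria2 difference was carried by its middle and start-side bins. The sleep-deprived library was higher in 11 of 13 bins. Counting bins from the start of the gene, the third to the sixth were higher by 2.23, 2.07, 2.68 and 2.60 points, and the eighth by 2.43 points. The second and highest bin differed by 0.65 points, and the differences at the ends were -0.34 points at the start and -0.63 at the far end. Neither the start bin nor the flanks were higher, and the flanks had 2.14% in the control and 2.10% in the sleep-deprived library. In the fourth to sixth and the eighth bin, the DDD-seq control was the lowest library. There the ACE-seq control exceeded it by 2.18, 1.46, 0.93 and 1.51 points, against -1.25 points in the third bin.

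**Figure D3:**
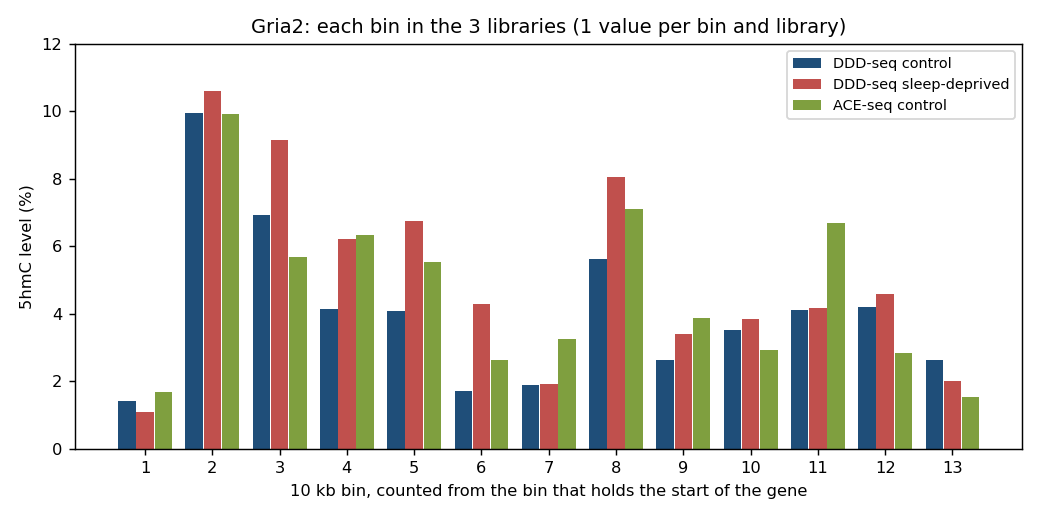
5hmC level in percent (y axis) of the 13 bins of Gria2, counted from the bin with the start of the gene (x axis), in the 3 libraries, with 1 value for each bar. The second bin is highest in each library at 9.94% to 10.6%. In bins 3 to 6 the sleep-deprived library exceeds the DDD-seq control by 2.07 to 2.68 points. The ACE-seq control also exceeds the DDD-seq control in bins 4 to 6, but not in bin 3.

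The ACE-seq control, however, also exceeded the DDD-seq control at Gria2. It was higher by 0.56 ± 0.37 points (4.62% against 4.07%, a ratio of 1.14) and in 8 of 13 bins. This was the 9th largest such difference of 2921 genes, in a comparison in which the median difference over all genes was -0.0505 points. Both comparisons share the DDD-seq control, which was the lowest library in 7 of the 13 bins and the highest in 1. Set directly against the ACE-seq control, the sleep-deprived library was higher by 0.46 ± 0.42 points and in 8 of 13 bins. A ratio of at least 1.1 over the DDD-seq control in both libraries was found in 3.63% of all genes.

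With the median bin in place of the mean, the levels of Gria2 were 4.07%, 4.30% and 3.89%, and the ratio to the DDD-seq control was 1.06 after sleep deprivation and 0.956 by ACE-seq, neither past the size rule. The median of the bin differences was 0.65 points for the first and 0.93 for the second, so for ACE-seq the median difference and the ratio of medians pointed in opposite directions. Leaving out the bin with the largest difference gave 0.88 ± 0.33 points and a ratio of 1.22 after sleep deprivation, and 0.39 ± 0.36 points and a ratio of 1.09, below the size rule, by ACE-seq.

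The remaining members had similar levels by both methods. The ACE-seq minus DDD-seq control difference was 0.04 ± 0.28 points at Gria4, 0.02 ± 0.26 at Gria3, 0.07 ± 0.09 at Gria1 and -0.02 ± 0.07 at Grid1. Their ratios lay between 0.989 at Grid1 and 1.055 at Gria1. The share of all genes with a ratio of at least 1.1 was 7.36%, with 1 of 5 members, Gria2, among them, and the share at or below the inverse was 19.3%, with 0 members.

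**Figure D4:**
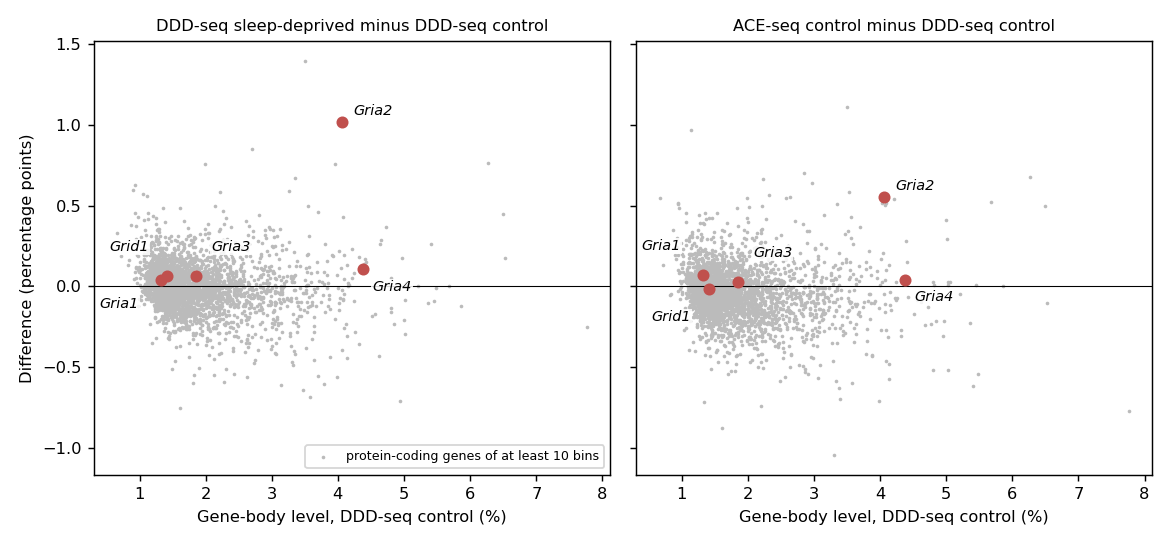
Difference from the DDD-seq control in percentage points (y axis) against the gene-body level in the DDD-seq control (x axis) for 2921 genes (grey) and the 5 members (red), for the sleep-deprived library on the left and the ACE-seq control on the right. Gria2 lies at 1.02 points on the left and at 0.56 points on the right, and the other members lie close to 0.

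Genes known to act with AMPA receptors were mostly lower than Gria2 and Gria4, as were at least 98.0% of all genes in each library. Of 18 auxiliary subunit genes, which set the gating and surface delivery of the receptor, 6 had at least 10 bins, and their median was 1.50%, 1.41% and 1.34%. Against 22.8%, 21.7% and 23.2% of all genes, none of the 6 reached a body to flank ratio of 1.5. Cacng2, encoding stargazin, which brings AMPA receptors to the surface of granule cells, had the highest level of them (1.67%, 1.67% and 1.64%). It was followed in both control libraries by Gsg1l, with 1.58%, 1.38% and 1.48%, and in the sleep-deprived library by Shisa6, with 1.54%, 1.55% and 1.38%. The lowest was Cacng3, with 1.20%, 1.38% and 1.04%. Between the DDD-seq libraries, Cacng3 was past the ratio of 1.1 as higher and Gsg1l past its inverse as lower. All 6 were lower by ACE-seq than by DDD-seq in control tissue, as were 1898 of 2921 genes.

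Of 21 genes of AMPA receptor trafficking, scaffolding and clustering, 10 had at least 10 bins, with medians of 1.84%, 1.90% and 1.71%. Against 22.8%, 21.7% and 23.2% of all genes, 3 of the 10 reached the flank ratio of 1.5 in each library. These were Olfm3, an olfactomedin gene (5.68%, 5.68% and 6.21%), Dlg1, encoding the scaffold SAP97 (3.67%, 3.55% and 3.51%), and Adarb1, encoding the editing enzyme of the Gria2 transcript (2.46%, 2.53% and 2.19%). Grip1, whose PDZ scaffold binds GluA2, had only 1.37%, 1.43% and 1.34% over 64 bins, and Epb41l1 and Lrrtm4 were the next lowest with 1.46% and 1.60% in the DDD-seq control. None of the 10 was past the ratio of 1.1 or its inverse after sleep deprivation.

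Partners of the delta receptors gave both high and low genes. Nrxn3, a neurexin gene, had 3.14%, 3.17% and 2.99% and reached the flank ratio of 1.5 in each library. Ptpn4, encoding a tyrosine phosphatase, had 3.06%, 2.65% and 2.50%, reached that ratio too and was past the inverse ratio of 1.1 as lower in the sleep-deprived library. Nrxn2 had 1.54%, 1.53% and 1.55% and did not reach the flank ratio. Grid1 itself, with 1.42%, 1.48% and 1.40%, was lower than these 3 genes in each library. The cerebellin genes Cbln1 to Cbln4 span at most 2 bins and were not ranked.

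Other glutamate receptor genes ranged from below the median gene to far above it. Among the ionotropic ones, 7 of 12 had at least 10 bins, with medians of 1.66%, 1.70% and 1.63%. The flank ratio of 1.5 was reached by 22.8%, 21.7% and 23.2% of all genes. Of the 7, it was reached in each library by Grik2, a kainate receptor subunit gene (5.02%, 4.94% and 5.05%). Grin2a, an NMDA receptor subunit gene (2.52%, 2.49% and 2.34%), reached it too. The lowest were Grik3 with 1.24% and Grik4 with 1.27% in the DDD-seq control, below Gria1 and Grid1 in that library. Of the metabotropic ones, Grm8 had 1.42% in the DDD-seq control, and Grm5 (1.58%, 1.81% and 1.66%) was past the ratio of 1.1 after sleep deprivation.

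**Figure D5:**
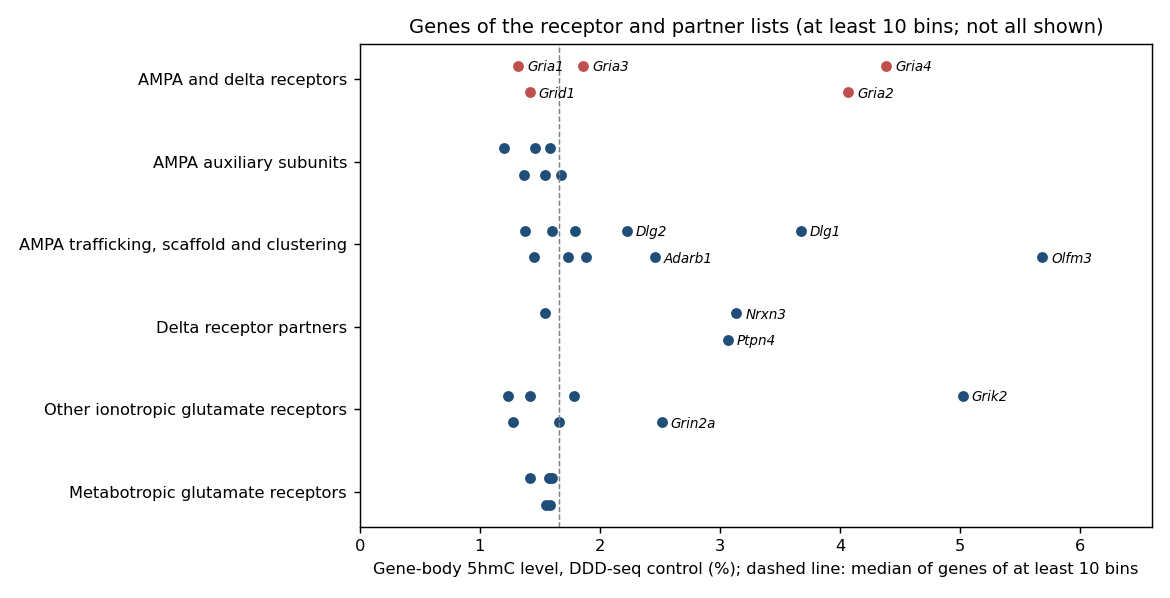
Gene-body 5hmC level in percent in the DDD-seq control (x axis) of the members (red) and of genes of the receptor and partner lists (blue, rows) with at least 10 bins, with the median of all such genes as a dashed line. The lists are not shown in full. Most genes lie near or below the median of 1.66%. Of the genes shown, Gria2 and Gria4 lie farthest to the right of it together with Grik2, Dlg1 and Olfm3. Others, among them Nrxn3, Ptpn4, Grin2a, Adarb1 and Dlg2, also lie to the right of it.

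Markers of cerebellar cell types were read for 5hmC, which does not measure expression and so does not check the tissue by itself. Of 8 granule cell genes, 3 had at least 10 bins and all 3 reached the flank ratio, with Etv1 at 6.52%, Kcnd2 at 5.36% and Cadps2 at 3.55% in the DDD-seq control. Of the 5 shorter ones, Fat2 had a flank ratio of 1.20 there, Neurod1 0.38, Zic1 0.48, Zic2 0.40 and Gabra6 1.70. The ratio of 1.5 was also reached there by long markers of other cells, the Purkinje gene Plcb4 (1.94), the interneuron genes Ptprk (2.05) and Nxph1 (1.73) and the oligodendrocyte gene St18 (1.69). It was not reached by the other long ones, the Purkinje genes Itpr1 (0.97) and Car8 (0.74) and the oligodendrocyte gene Mbp (0.96). Nor was it by Slc1a2 (1.40, astrocyte), Flt1 (0.41) and Tek (0.88, both endothelial) and Ptprc (0.95, blood). Of all genes, 22.8% reached it. Beside the Gria2 difference, 1 of the 3 long granule cell genes was higher and 2 were lower in the sleep-deprived library (median -0.102 points). Gabra6, too short to be ranked, had 2.99% and 4.14% over 3 bins. Past the ratio of 1.1 or its inverse between the DDD-seq libraries were also Car8, a Purkinje cell gene (0.87% and 1.25%), Tek, an endothelial gene (1.11% and 1.24%), and Slc1a2, an astrocyte gene (1.85% and 1.65%). In the ACE-seq control these genes had 1.22%, 1.26% and 1.65%, past the same rule in the same direction from the DDD-seq control. The part of cell composition in the Gria2 difference was not tested. Of the Purkinje, interneuron, astrocyte, oligodendrocyte, endothelial and blood lists, between 1 and 3 genes each had at least 10 bins, with medians between 1.14% and 2.20%, and no microglial gene did.

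The genes whose shape was most like that of each member were found from 20 points, made of 10 stretches of the body and 5 of each flank, averaged over the libraries. For Gria4 they were Pde4b, a phosphodiesterase gene (Pearson's r = 0.965), and App, the amyloid precursor gene (0.960), both of 2881 candidates. They were Pde3b (0.933) and Eya3 (0.932) for Gria2. Grid1 was most like Nbeal1 (0.951) and Actn1 (0.909), genes with body to flank ratios of 0.887 and 0.869 in the DDD-seq control, Gria3 most like Sgcd (0.776) and Cadps2 (0.763), and Gria1 most like Gpm6b (0.731) and Unc79 (0.726). The measure compares shapes and not levels: Pde3b, with 4.80%, 4.86% and 4.83%, was as high as Gria2, whereas Eya3 had 1.85%, 1.68% and 1.53%.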

How the data were processed

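Genomic DNA of mouse cerebellum was profiled in 3 libraries, 1 per group. The submitters' processing notes list Bismark, FastQC and Trimmomatic. The authors deposited 1 fraction per 10 kb bin and library, as its values between 0 and 1 show, and fractions were multiplied by 100 to percent. The authors' averaging, cytosine context and coverage filter are stated in none of the sources used here. Both DDD-seq columns are headed "all" and could pool several runs or libraries, although the labels list 1 library per group. The ACE-seq column is not headed so. The notes name hg19, a human build, but the bins cover 21 mouse chromosomes and end 1.33 to 211.9 kb after the last RefSeq gene of GRCm38.p6, so they were read as GRCm38.

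Bins with a value in all 3 libraries (262974) were used. A bin belonged to a gene when it overlapped the body by at least 1 bp, and differences were taken bin by bin. Size rules were a body to flank ratio of 1.5 and a ratio between libraries of 1.1 or its inverse. Strand was taken from the RefSeq promoter table, and Gria1, Gria3 and Grid1 were read in genome order. Genes named are the 5 members, from each list up to 3 genes of highest and of lowest level and those past a size rule, and the 2 genes of most similar shape to each member (in the better of both orders where no strand was given). Usp9x and the cell type markers were singled out after values were seen. Some genes of the lists are not reported here. Members and lists were chosen with earlier results of these data known. The gene summary was tested on simulated data. Software was matplotlib 3.10.9, scipy 1.17.1, pandas 2.3.3, numpy 2.4.6 and Python 3.11.15.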

Additional observations from a re-analysis of the deposited data

How the results depend on the processing

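The alternatives were the median bin, bins wholly inside the gene, no bins shared with another protein-coding gene, no bins at 0, 1 bin left out, libraries scaled to the same mean, other flanks and other size rules. Of 246 recomputed values, 243 stayed near the reported value and 3 did not. Near meant within the 95% interval of the reported value, taken from the SE over bins, or, for counts, within 1.5 times it. This tally is no measure of stability, since 76 of the 246 were equal to the reported value, among them all those without shared bins, of which the members have none. No called difference changed sign, although the ratio of median levels of Gria2 by ACE-seq was 0.956. With flanks of 50 kb the body to flank ratio of Gria1 in the ACE-seq control was 1.32. With a body to flank ratio of 2, 1 member passed in the DDD-seq control, Gria4, against 7.91% of genes. With a difference of 5% in place of 10% between libraries, 2 members passed as higher by ACE-seq, Gria1 and Gria2, against 16.2%. The Gria2 difference after sleep deprivation ranged from 0.65 to 1.29 points and that by ACE-seq from 0.39 to 0.93. No paired analysis was possible because each group has 1 library. Coverage minimums could not be tried, since the table holds no coverage, and unknown depth limits every value of a single bin.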

Other observations

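The surroundings of the members held their own differences between libraries. Wapl, a cohesin release factor gene 72.0 kb from Grid1, had 3.10%, 2.22% and 2.73% over 8 bins (DDD-seq control, sleep-deprived DDD-seq, ACE-seq control), and its bin chr14:34720001-34730000 was the highest flank bin of Grid1 in the first, with 5.996%, 3.07% and 2.33%. Glrb, the glycine receptor beta subunit gene 39.4 kb upstream of Gria2, had 2.28%, 2.20% and 2.12% over 8 bins, well below Gria2 in each library. Inside Gria4, the bins of the long noncoding RNA gene Gm46101 had 5.67%, 5.60% and 5.22%, and inside Grid1 the bin of the microRNA gene Mir346 had 1.59%, 1.28% and 1.37%. The lowest bin of Grid1 in the DDD-seq control, which holds the pseudogene Gm19016, had 0.21%, 1.33% and 1.80%. These genes were chosen after their values were seen.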
